A study of Mus musculus with 20 samples.

Results

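Donor CD4+ T cells were compared with donor CD8+ T cells recovered after allogeneic bone marrow transplantation, using the WT libraries numbered 2, 3, 5 and 6 of each subset. These libraries were paired by that number, which was read as the animal although the labels do not state this. The comparison held 8 of the 20 libraries of the series and, by a normalized count that averaged 10 or more across these 8, 12559 of the 17101 genes of the table. The question was which transcripts separate the helper and the cytotoxic arm of the same alloreactive response, where Dnmt3a, the de novo DNA methyltransferase under study, is intact.

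CD4+ and CD8+ T cells arise from a common thymic precursor. The transcription factor ThPOK (encoded by Zbtb7b) holds the helper fate and RUNX3 the cytotoxic fate, and each restrains the other's program. CD4+ cells see peptides on MHC class II and act mainly through cytokines and costimulatory ligands, whereas CD8+ cells see MHC class I and kill through perforin and granzymes. In graft-versus-host disease (GVHD), donor cells of both subsets are activated by host antigens and injure host tissue.

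RNA was measured by poly(A)-selected, strand-specific sequencing of sorted splenic donor T cells taken on day 10 after transplantation. WT donors were littermates of mice whose Dnmt3a alleles are deleted by Cre under the Cd4 promoter, on the C57BL/6J (B6) background, and were 6 to 12 weeks old. The recipients, irradiated F1 mice that carry a donor and a foreign MHC haplotype, were 8 to 12 weeks old. The 4 KO CD4 and 4 KO CD8 libraries, from donors with the deletion, serve below for 1 comparison and in a joint fit used to check WT calls. The 4 KO CD4+CD8+ double-positive libraries were not used. The Cd4 promoter is active in the thymic precursors of both subsets, so that CD8+ cells of KO donors carry the deletion too.

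The 8 WT libraries held 37547651 to 46771383 reads on genes, with reads on 14421 to 14677 genes. Among genes with a mean over 1000, the median SD between libraries of a subset was 0.0892 on the log2 scale in CD4 and 0.0664 in CD8. Libraries of the same number deviated together (r across genes 0.111 to 0.210, against -0.133 to 0.0154 for different numbers), so the number was kept as a block. Deviations were taken from the mean of each subset, so these ranges are not independent of each other. The X-linked genes Cd40lg, Foxp3, Cxcr3 and Il2rg were not analysed here. In sorted bulk RNA, fewer cells of a kind and less RNA per cell cannot be told apart.

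On the genes that varied most over these 8 libraries, a choice that favours genes differing between subsets, the subsets were apart. In a principal component analysis of the 500 most variable genes, component 1 carried 75.4% of the variance and placed the CD4 libraries at 32.0 to 39.3 and the CD8 libraries at -35.6 to -33.0, and component 2 carried 6.45%. Differences below are CD4 minus CD8 on the log2(normalized count + 1) scale, with SE and an adjusted p from limma. Of all genes tested, 6134 (48.8%) passed the threshold of 0.05, of which 3063 (24.4%) were higher in CD4 and 3071 (24.5%) in CD8. Many of these differences were small, and 3488 of the called genes differed by less than 0.5. A difference of at least 2-fold was called for 1245 genes (9.91%), with 733 (5.84%) higher in CD4 and 512 (4.08%) higher in CD8. At least 2 on the log2 scale was reached by 264 genes on the CD4 side and 182 on the CD8 side. The median over all genes was -0.01, and for 5246 genes (41.8%) the 4 CD4 libraries did not overlap the 4 CD8 libraries. Counts for gene lists are to be read against these shares.

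**Figure D1:**
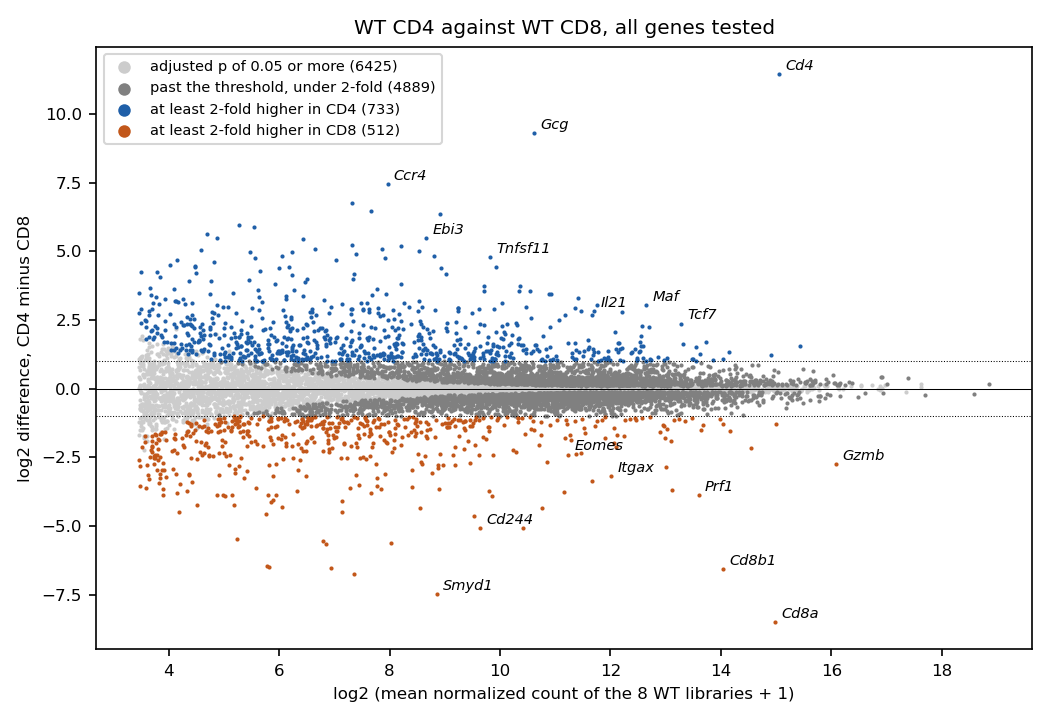
Each point is 1 of the 12559 genes tested, with its mean level over the 8 WT libraries on the horizontal axis (log2) and its log2 difference, CD4 minus CD8, on the vertical axis. The 733 genes at least 2-fold higher in CD4 are blue and the 512 at least 2-fold higher in CD8 are orange, with Cd4 at 11.45 and Cd8a at -8.48 at the ends.

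The coreceptor genes separated the libraries as labelled. Cd4, which encodes the coreceptor for MHC class II, had normalized counts of 66999, 64652, 72567 and 66902 in the CD4 libraries numbered 2, 3, 5 and 6, and of 12.2, 79.6, 9.88 and 28.7 in the CD8 libraries of the same numbers. The difference was 11.45 ± 0.34, adjusted p = 5.14e-11, and Cd4 in CD8 libraries stood at 0.0481% of its CD4 level. Cd8a, which encodes the alpha chain of the coreceptor for MHC class I, had 62857, 63084, 68732 and 62768 in CD8 and 174, 99.1, 586 and 102 in CD4, where library 5 stood above the other three. Its difference was -8.48 ± 0.28, adjusted p = 1.31e-10, and Cd8a in CD4 libraries was at 0.154% to 0.910% of its mean in CD8 libraries. Cd8b1, the beta chain, reached 289.7, 285, 549 and 340.0 in CD4 against 32976, 31172, 34382 and 34031 in CD8 (-6.55 ± 0.11, adjusted p = 7.10e-13), or 0.861% to 1.66% of the CD8 level.

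The lineage regulators differed less than the coreceptor genes. Zbtb7b, the ThPOK gene, had 8756, 8595, 9300.4 and 9862 in CD4 and 2959, 2733, 2748 and 2759 in CD8. The CD4 libraries were all higher, by 3.26-fold (1.70 ± 0.05, adjusted p = 4.97e-11), and Zbtb7b remained well detected in CD8 cells. Runx3 had 7329, 6786, 7054 and 7252 in CD4 and 10403, 10516, 10474 and 10780.1 in CD8, without overlap (as 41.8% of all genes tested) and with a difference of -0.57 ± 0.04, adjusted p = 1.39e-07. Gata3, which with ThPOK marks helper commitment, was at 5237 ± 363 (SD, n = 4) in CD4 and 2625 ± 259.5 in CD8 (1.00 ± 0.05, adjusted p = 1.12e-08). Satb1, a chromatin organizer, and Runx1 were also higher in CD4, by 0.89 and 0.94. Tox, a regulator of CD4 lineage entry in the thymus and of persistent activation in mature cells, was higher in CD8, at 12648, 11883, 16124 and 12046 against 5195, 6082, 6266 and 7211 (-1.09 ± 0.08, adjusted p = 1.93e-07). In the list of 14 coreceptors and lineage regulators, 7 were higher in CD4 and 5 in CD8, beside 24.4% and 24.5% of all genes tested, with a median of 0.19.

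RUNX proteins bind a short core and act on the genes of both lineages, so promoter windows of the lineage regulators are shown, from RefSeq (GRCm38.p6), each covering 250 bases before to 50 after an annotated start. Capitals mark the RUNX core, TGTGGT or its reverse complement ACCACA, searched on both strands. The T-box letters GGTGTGA and the TCF/LEF letters CTTTGA were searched too, and none of the windows shown held either. The Runx3 window lies at chr4:135120395-135120694 on the plus strand, at the upstream, distal start, and the Zbtb7b window at chr3:89387622-89387921 on the minus strand.
Runx3: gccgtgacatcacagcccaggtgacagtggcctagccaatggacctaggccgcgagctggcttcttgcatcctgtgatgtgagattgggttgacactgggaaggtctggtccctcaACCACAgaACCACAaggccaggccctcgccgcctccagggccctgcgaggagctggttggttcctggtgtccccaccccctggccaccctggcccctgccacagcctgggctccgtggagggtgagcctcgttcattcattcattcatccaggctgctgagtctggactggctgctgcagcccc
Zbtb7b: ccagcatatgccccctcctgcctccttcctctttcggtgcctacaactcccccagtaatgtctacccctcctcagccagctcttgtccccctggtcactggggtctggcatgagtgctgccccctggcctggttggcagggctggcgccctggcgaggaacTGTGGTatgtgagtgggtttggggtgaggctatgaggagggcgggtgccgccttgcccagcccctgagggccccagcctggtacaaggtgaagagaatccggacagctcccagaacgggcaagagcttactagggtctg
The Runx3 window held 2 matches and the Zbtb7b window 1, while the other annotated window of each gene held 0. The windows of Cd8a, Eomes and Tcf7 were searched too, held 0 matches to any of these letters and are not shown. The core is short and common, and it stood in 16.8% of all 32851 windows of the table, in 13.2% of the windows of genes tested, in 16.5% of those at least 2-fold higher in CD4 and in 17.4% of those at least 2-fold higher in CD8. A match is a run of letters and not a measured binding site.

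**Figure D2:**
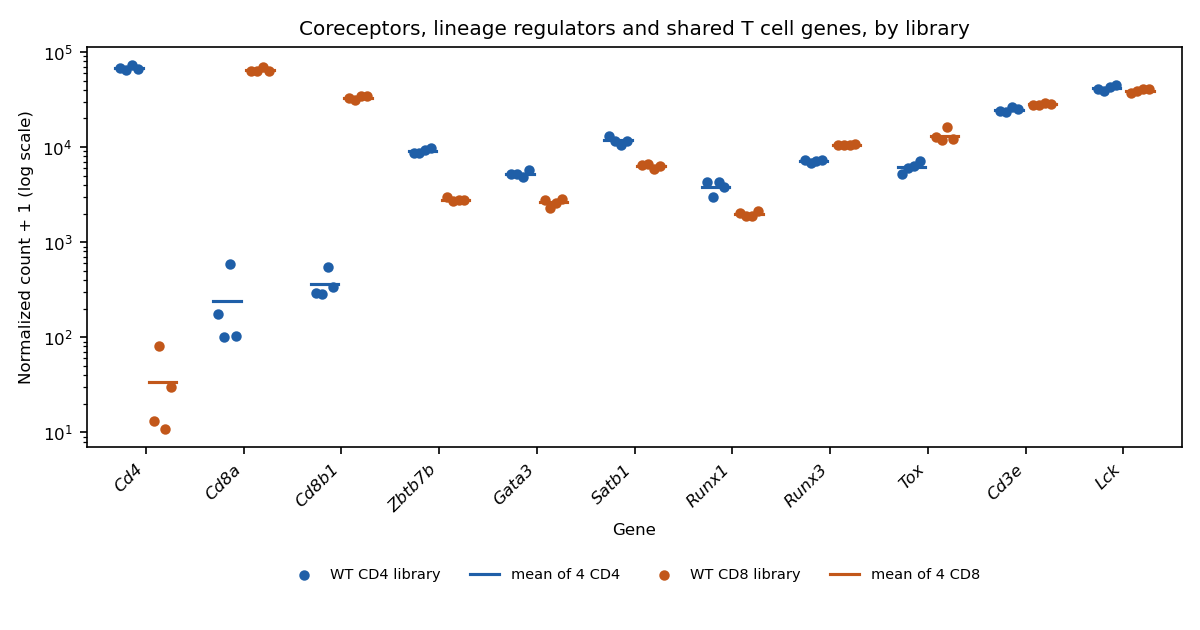
Normalized count + 1 (log axis) of 11 genes in each of the 4 WT CD4 (blue) and 4 WT CD8 (orange) libraries, with the horizontal bar at the group mean. Cd4, Cd8a and Cd8b1 lie orders of magnitude apart between subsets, the lineage regulators within a few fold, and Lck overlaps.

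Of 32 tested genes of T cell receptor signalling, 17 were higher in CD4 and 8 in CD8, beside 24.4% and 24.5% of all genes tested. By at least 2-fold, 3 and 1 were higher, beside 5.84% and 4.08%, and the list median was 0.13. Cd3e, a receptor subunit, was at 24170.2, 23516, 26325 and 24896 in CD4 and 27380.3, 27410.3, 29178 and 28266 in CD8 (-0.18 ± 0.04, adjusted p = 0.00209), a call lost in the fit joint with KO libraries (adjusted p = 0.0716). Lck, the kinase that the coreceptors carry, had 41863 ± 2573 in CD4 and 39198 ± 1848 in CD8, overlapped, and did not pass (0.09, adjusted p = 0.0965). Themis, an adaptor needed in thymic selection, passed narrowly (0.15 ± 0.04, adjusted p = 0.012) and lost its call without the libraries numbered 3 (0.11) or 5 (0.14), without the block (adjusted p = 0.0553), without the mean-variance trend (adjusted p = 0.0826) and in the joint fit (adjusted p = 0.0585). Negative regulators split. Cd5 was 2-fold higher in CD4, at 15198, 16139, 16871 and 15965 against 7336, 8910.3, 8435 and 7452, and Cd6 moved alike (1.05 ± 0.06, adjusted p = 1.97e-08). Cblb, a ubiquitin ligase that dampens signals given without costimulation, was higher in CD8, at 16319, 15944, 15128 and 14080 against 6877, 8191, 6808 and 7339 (-1.07 ± 0.05, adjusted p = 4.40e-09). Trat1, a transmembrane adaptor that stabilizes the receptor complex, stood furthest apart, at 1134, 475, 976 and 856 in CD4 and 33.1, 26.9, 29.7 and 21.3 in CD8 (4.85 ± 0.20, adjusted p = 1.03e-09).

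CD8 libraries held more RNA of the killing machinery. Of 20 tested genes of the list of granzymes and cytotoxic machinery, 13 were higher in CD8 and 5 in CD4, beside 24.5% and 24.4% of all genes tested. By at least 2-fold, 8 and 1 were higher, beside 4.08% and 5.84%, and the list median was -0.57. Prf1, which encodes the pore-forming perforin, had 28092, 23163, 19708 and 21655 in CD8 and 1042, 2627, 1599.6 and 1403 in CD4. No CD4 library came near the lowest CD8 library, and the difference was -3.87 ± 0.17, adjusted p = 1.65e-09, or 14.6-fold. Gzmb, granzyme B, had 123834, 153597, 100264 and 107998 in CD8 and 16784, 23463, 18673 and 13543 in CD4 (-2.75 ± 0.07, adjusted p = 2.64e-11), so that CD4 cells too held many transcripts of it. Gzma, granzyme A, had 20577, 17492, 11804 and 15752 in CD8 and 1317, 1304, 1316 and 1099 in CD4 (-3.68 ± 0.10, adjusted p = 2.26e-11). Gzmk stood at -1.71, Fasl, the death receptor ligand, at -1.33, the granule protein gene Nkg7 at -1.30 and the protease gene Ctsw at -1.32. None of these overlapped, as for 41.8% of all genes tested, and Ctsw was named on that condition. Among the exceptions were Gzmc, with 518, 1213, 557 and 358 in CD4 against 297, 319, 171 and 211 in CD8 (1.30 ± 0.18, adjusted p = 5.83e-05), and Srgn, which encodes the granule proteoglycan serglycin (0.88 ± 0.04, adjusted p = 3.22e-09). The other members higher in CD4, named to complete the count, were Tnfsf10 (0.49), which encodes the death ligand TRAIL, Stx11 (0.43), of granule release, and Lamp1 (0.32), of the granule membrane, all without overlap (as 41.8% of all genes tested). Granzyme genes of the chromosome 14 cluster resemble each other, and reads shared between them could be lost or split by the counting.

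The promoter windows of the cytotoxic genes named first are shown for the same core, in capitals as above. The Prf1 window lies at chr10:61297586-61297885 on the plus strand and the Gzmb window at chr14:56262285-56262584 on the minus strand.
Prf1: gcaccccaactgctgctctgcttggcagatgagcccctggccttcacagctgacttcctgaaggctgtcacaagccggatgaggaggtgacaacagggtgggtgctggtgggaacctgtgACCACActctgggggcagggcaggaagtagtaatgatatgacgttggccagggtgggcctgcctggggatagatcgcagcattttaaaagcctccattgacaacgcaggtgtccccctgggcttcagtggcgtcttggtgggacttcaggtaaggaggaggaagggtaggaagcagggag
Gzmb: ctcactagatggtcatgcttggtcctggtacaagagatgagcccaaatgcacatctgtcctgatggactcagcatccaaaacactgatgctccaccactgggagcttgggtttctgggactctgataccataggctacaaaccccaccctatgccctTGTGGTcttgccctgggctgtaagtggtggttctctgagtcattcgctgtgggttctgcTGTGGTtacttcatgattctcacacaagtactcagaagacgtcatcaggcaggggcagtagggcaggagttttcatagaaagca
The Prf1 window held 1 match and the Gzmb window 2, beside the 13.2% of windows of tested genes with at least 1. The T-box and TCF/LEF letters, absent from both, stood in 3.39% and 11.9% of the windows of tested genes.

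Receptors that CD8+ effector cells share with natural killer (NK) cells were on the CD8 side. Of 18 tested, 13 were higher in CD8, all 13 by at least 2-fold, and 0 in CD4, with a median of -1.82. The shares over all genes tested were 24.5%, 4.08% and 24.4% in that order. Klrk1, the gene of the activating receptor NKG2D, had 6586, 6229, 5869 and 5122 in CD8 and 464, 635, 634 and 584 in CD4 (-3.36 ± 0.09, adjusted p = 2.67e-11). Klrd1, which encodes CD94, the partner chain of NKG2A, stood at -1.85 ± 0.10, adjusted p = 1.45e-08. Cd244, a SLAM family receptor, had 1677, 1584, 1558 and 1349 in CD8 and 49.0, 45.9, 57.3 and 32.2 in CD4 (-5.06 ± 0.14, adjusted p = 2.64e-11). Klre1 was at -3.81, and Klra7, a member of a family of near-identical genes, was found with 1 read in the 4 CD4 libraries against 469 in CD8 (ratio 440, exact 95% interval for counting error 78.5 to 17399). Klrg1, which marks terminal effectors, overlapped (0.22, adjusted p = 0.306), although without the libraries numbered 6 it passed at 0.47 and without those numbered 5 it stood at -0.05. Of the 5 defining NK cell markers in the table, Ncr1 had a mean under 10, Klrb1c and Tyrobp did not pass, Eomes and Fcer1g were higher in CD8, and the sum was 4274 to 5553 in CD8 and 961 to 1700 in CD4 libraries. Eomes, which T cells also express, made up most of the CD8 sum, and the other 4 summed to 409 to 883 in CD8 and 325 to 537 in CD4, with overlap. The part of contaminating cells in these differences was not tested.

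Cytokine genes lay on the other side. Of 19 tested, 16 were higher in CD4, 13 by at least 2-fold, and 1 in CD8, with a median of 1.37. The shares over all genes tested were 24.4%, 5.84% and 24.5% in that order. The exception was Ifng, the type 1 effector cytokine, with 10544, 10611, 11937 and 11556 in CD8 and 4647, 5763, 7774 and 7219 in CD4 (-0.84 ± 0.07, adjusted p = 8.58e-07). Tnf went the other way, with 1227, 1022, 1392 and 1549 in CD4 and 486, 488, 537 and 546 in CD8 (1.32 ± 0.08, adjusted p = 5.33e-08). Il21, which helps B cells and sustains CD8+ cells, had 5268, 5252, 6638 and 6192 in CD4 and 694, 843, 1069 and 699 in CD8 (2.83 ± 0.08, adjusted p = 2.67e-11). Csf2, which encodes GM-CSF, had 858, 1382, 846 and 878 in CD4 and 133, 160.2, 217 and 224 in CD8 (2.42 ± 0.17, adjusted p = 1.16e-07). Il2, the T cell growth factor, was low but separate, at 125, 120.2, 52.4 and 61.6 in CD4 and 4.36, 13.4, 2.70 and 7.42 in CD8 (3.59 ± 0.42, adjusted p = 1.33e-05). Il13, of the type 2 set, was at 204, 154, 203 and 210.4 against 2.62, 0.960, 14.4 and 8.34 (5.09 ± 0.44, adjusted p = 7.59e-07). Ebi3, a subunit of IL-27 and IL-35, had 807, 891, 753 and 710.4 in CD4 and 24.4, 16.3, 8.09 and 22.2 in CD8 (5.50 ± 0.24, adjusted p = 1.77e-09). Il10, an anti-inflammatory cytokine, was 2.1-fold higher in CD4, and Lta, which encodes lymphotoxin alpha, stood at 2.81. Whether single CD4+ cells held several of these transcripts was not measured.

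**Figure D3:**
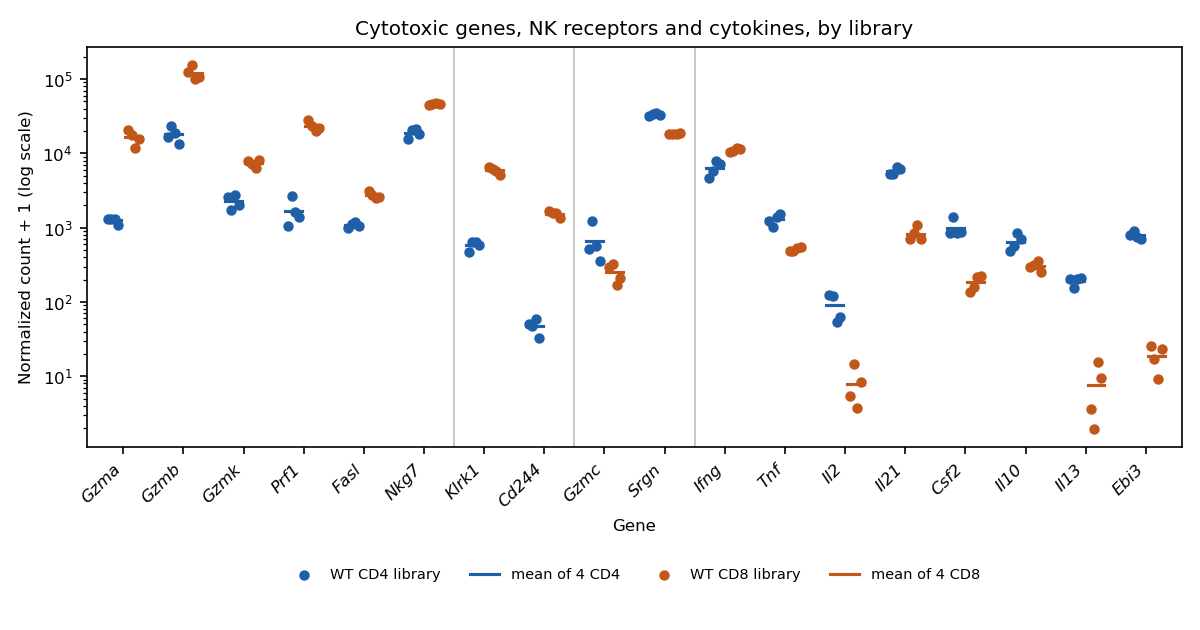
Normalized count + 1 (log axis) of 18 effector genes in each of the 4 WT CD4 (blue) and 4 WT CD8 (orange) libraries, with the horizontal bar at the group mean. From left to right stand 6 cytotoxic genes and 2 NK receptors, all higher in CD8, then Gzmc and Srgn, higher in CD4, and 8 cytokines, of which Ifng alone is higher in CD8.

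Among 34 transcription factors of effector and memory cells, 19 were higher in CD4 and 7 in CD8, beside 24.4% and 24.5% of all genes tested. By at least 2-fold, 7 and 5 were higher, beside 5.84% and 4.08%, and the list median was 0.27. Eomes, the T-box factor of cytotoxic and memory CD8+ cells, had 3567, 3519, 4073 and 4824 in CD8 and 577, 479, 1374 and 847 in CD4 (-2.39 ± 0.15, adjusted p = 3.96e-08). Tbx21, the T-box factor T-bet of type 1 cells, was high in both and differed little, at 11323, 10199, 10110.5 and 11059 in CD8 and 8373, 8026, 7937 and 8486 in CD4 (-0.38 ± 0.04, adjusted p = 4.98e-06). Nr4a2, an orphan receptor induced by antigen signals, was higher in CD8 (-2.33 ± 0.14, adjusted p = 2.71e-08). On the CD4 side, Maf, which drives Il21 and Il10, had 11592, 10036, 12784 and 11321 in CD4 and 1397, 1338, 1313 and 1446 in CD8 (3.05 ± 0.06, adjusted p = 1.90e-12). Tcf7, which encodes TCF-1 of stem-like and follicular helper cells, had 20403, 12680.3, 15399.7 and 17903 in CD4 and 2546, 2876, 3397 and 3936 in CD8 (2.38 ± 0.11, adjusted p = 2.27e-09). Lef1, its relative, stood at 0.72, Id3, which restrains E proteins, at 2.09, and Bcl6, the follicular helper factor, at 1.08. Rora passed at 0.34 but not in the fit joint with KO libraries (adjusted p = 0.112) or without the mean-variance trend (adjusted p = 0.0620).

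Costimulatory genes were mostly on the CD4 side, with 14 of 23 tested higher in CD4, 11 of them by at least 2-fold, and 8 higher in CD8, 2 by at least 2-fold, and a median of 0.86. The shares over all genes tested were 24.4%, 5.84%, 24.5% and 4.08% in that order. Tnfsf11, which encodes RANKL, had 1938, 1553, 1868 and 1596 in CD4 and 55.0, 59.5, 62.9 and 71.4 in CD8 (4.78 ± 0.13, adjusted p = 2.64e-11). Tnfrsf4, the OX40 gene, had 8164, 8385, 8466 and 8145 in CD4 and 1220.4, 1264, 1072 and 1173 in CD8 (2.81 ± 0.05, adjusted p = 1.90e-12). Icos, which sustains helper function, had 23009, 19341, 20552 and 20585 in CD4 and 6135, 6167, 6973 and 6166 in CD8 (1.71 ± 0.05, adjusted p = 6.79e-11). Cd28 was 1.66-fold higher in CD4, and the ligand genes Cd70 and Tnfsf8 (CD30 ligand) stood at 3.11 and 2.70.

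Inhibitory receptors split. Of 15 tested, 8 were higher in CD8 and 5 in CD4, beside 24.5% and 24.4% of all genes tested, with a median of -0.28. Havcr2, the TIM-3 gene, had 13308, 13010.5, 11539 and 12139 in CD8 and 2805, 4272, 3866 and 3788 in CD4 (-1.78 ± 0.09, adjusted p = 4.04e-09). Lag3, whose product binds MHC class II, had 29242, 24548, 30348 and 24306 in CD8 and 7452, 9412, 11483 and 9782 in CD4 (-1.52 ± 0.08, adjusted p = 1.31e-08), and Cd160 stood at -1.69. Pdcd1, the PD-1 gene, was high in both subsets, at 26216 ± 1596 (SD, n = 4) in CD8 and 19558 ± 2740.3 in CD4 (-0.43 ± 0.06, adjusted p = 1.08e-04). Tigit had 10160.1, 9968, 10876 and 10195 in CD4 and 10276, 9880.4, 10443 and 8959.6 in CD8, overlapped, and did not pass (0.06 ± 0.04, adjusted p = 0.282). Ctla4 and Btla were higher in CD4, by 0.82 and 1.45.

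Of 11 chemokine genes tested, 5 were higher in CD8, 4 of them by at least 2-fold, and 2 were higher in CD4. The shares over all genes tested were 24.5%, 4.08% and 24.4% in that order. Ccl5 had 38947, 36123, 38693 and 42622 in CD8 and 7643, 7327, 12358 and 8622 in CD4 (-2.15 ± 0.09, adjusted p = 1.12e-09). Ccl3, Ccl4 and Xcl1 stood at -1.31, -1.12 and -1.40, and library 2 was the lowest of the CD4 libraries for each. The exceptions were Ccl1, with 1831, 2896, 2973 and 1818 in CD4 and 258, 344, 129 and 123 in CD8 (3.57 ± 0.21, adjusted p = 1.84e-08), and Cxcl10, an interferon-induced ligand (2.14 ± 0.18, adjusted p = 5.52e-07).

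Chemokine receptors numbered 15 tested, with 8 higher in CD4, 6 by at least 2-fold, and 5 higher in CD8, 2 by at least 2-fold. The shares over all genes tested were 24.4%, 5.84%, 24.5% and 4.08% in that order. Ccr4, a receptor of skin-homing and type 2 cells, had 659.7, 364, 538 and 418 in CD4 and 1.74, 2.88, 4.49 and 0 in CD8 (7.45 ± 0.40, adjusted p = 1.09e-08). Cxcr5, which guides cells to B cell follicles, had 2112, 1011, 1428 and 1685 in CD4 and 78.5, 99.8, 116 and 167 in CD8 (3.75 ± 0.19, adjusted p = 6.05e-09). Ccr7, the lymph node homing receptor, had 1879, 938, 994 and 1191 in CD4 and 258, 141, 142 and 195 in CD8 (2.75 ± 0.10, adjusted p = 2.34e-10). Ccr8 and Ccr1 stood at 1.78 and 1.28, and the Ccr1 call was lost in the fit joint with KO libraries (adjusted p = 0.0522). Ccr9, the small intestine homing receptor, was higher in CD4 in each pair, at 737, 251, 996 and 532 against 297, 218, 321 and 223, although the groups overlapped (1.10 ± 0.18, adjusted p = 2.68e-04). Cx3cr1, which marks vessel-patrolling effectors, was higher in CD8, at 4558, 3976, 4181 and 5160.2 against 1054, 1540.1, 1636 and 1684 (-1.61 ± 0.10, adjusted p = 3.20e-08), and Cxcr6 was slightly higher in CD8 (-0.28), a call lost without the mean-variance trend (adjusted p = 0.0643).

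Of 24 integrin and recirculation genes, 11 were higher in CD4 and 9 in CD8, beside 24.4% and 24.5% of all genes tested. The list median was 0.06. Itgax, the CD11c gene, had 7743, 6000.0, 6859 and 9242 in CD8 and 626, 851, 979 and 856 in CD4 (-3.17 ± 0.11, adjusted p = 2.67e-10), and Itgam, the CD11b gene, moved the same way (-2.42 ± 0.19, adjusted p = 3.28e-07). Itgax is also a dendritic cell marker, and the 7 such markers in the table summed to 9167 to 12456 in CD8 and 4445 to 5402 in CD4, with 3 higher in CD4 and 2 in CD8. Itgax made up most of the CD8 sum, and the other 6 summed to 3167 to 3312 in CD8 and 3594 to 4423 in CD4, higher in CD4 without overlap. Of the other members of that list, Flt3 and Clec9a did not pass and Xcr1 was higher in CD8 (-0.53). Zbtb46 (1.70) was among the 3 higher in CD4, of which 2 were so by at least 2-fold. The part of such cells was not tested. Itgb1, the beta 1 integrin, had 72041, 59674, 63437 and 67424 in CD4 and 22281, 17632, 25463 and 24093 in CD8 (1.56 ± 0.06, adjusted p = 9.16e-10). Itgb7, the beta 7 chain of gut homing integrins, overlapped (0.06, adjusted p = 0.331). Itgae, its CD103 partner, passed at 0.58 but not without the libraries numbered 5 (0.40), in the joint fit (adjusted p = 0.127) or without the mean-variance trend (adjusted p = 0.0649). S1pr1, which lets cells leave lymphoid organs, stood at 0.56, and Gcnt1, an enzyme of selectin ligand synthesis, at -1.64.

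Receptors for interleukins, interferons and TGF-beta, taken as 1 list, were more often higher in CD4, with 18 of 28 tested, 11 by at least 2-fold, against 5 higher in CD8 and 0 by at least 2-fold, and a median of 0.52. The shares over all genes tested were 24.4%, 5.84%, 24.5% and 4.08% in that order. Il7r, a survival receptor, had 8285, 6957, 6568 and 6331 in CD4 and 1879, 1504, 1605 and 1668 in CD8 (2.08 ± 0.05, adjusted p = 2.04e-11). Il6ra, the IL-6 receptor, had 1186, 694, 1034 and 1019 in CD4 and 93.3, 36.5, 47.6 and 48.2 in CD8 (4.16 ± 0.16, adjusted p = 4.29e-10). Il2ra, the high affinity chain of the IL-2 receptor, was 2.25-fold higher in CD4, and Il2rb, the chain shared with IL-15, was higher in CD8 (-0.36 ± 0.05, adjusted p = 2.38e-05). Il12rb2, which type 1 cells use to respond to IL-12, stood at 1.67, Il1r1 at 3.83, Il9r at 4.82 and Tgfbr3 at 2.99. Il18r1 did not pass (-0.02, adjusted p = 0.737).

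Lists named for CD4+ subsets shared genes with those above. Of 13 regulatory T cell genes tested, 10 were higher in CD4, 7 by at least 2-fold, and 2 in CD8, with a median of 1.07. The shares over all genes tested were 24.4%, 5.84% and 24.5% in that order. Ikzf2, the Helios gene, had 5281, 3559, 5002 and 5306 in CD4 and 1027, 1411, 1682 and 1532 in CD8 (1.76 ± 0.12, adjusted p = 7.08e-08), and Tnfrsf18, the GITR gene, stood at 1.45. Izumo1r, folate receptor 4, had 4785, 3017, 4116 and 3973 in CD4 and 539, 502, 861 and 603 in CD8 (2.68 ± 0.11, adjusted p = 6.89e-10). Of 12 follicular helper genes tested, 11 were higher in CD4, 10 by at least 2-fold, and 1, Pdcd1, in CD8, beside the same shares, with a median of 1.66. Foxp3 being outside the analysis, the share of regulatory cells among the sorted CD4+ cells was not tested.

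Genes of cell division were somewhat higher in CD8. Each of the 20 mitosis genes tested was higher in CD8, with differences from -0.70 to -0.30 and a median of -0.52, and 18 of 19 DNA replication genes were, with a median of -0.44, while 0 reached 2-fold in either list. Over all genes tested, 24.5% were higher in CD8 and 9.91% were at least 2-fold apart. Mki67, the proliferation marker, had 40650.4, 53272, 39952 and 44198 in CD8 and 29912, 33862, 30260.4 and 29635 in CD4 (-0.52 ± 0.05, adjusted p = 2.24e-06). Top2a and Mcm2, of chromosome and replication machinery, both stood at -0.41, and Pcna at -0.27. Birc5, which encodes survivin, and Cdc45, of the replicative helicase, were furthest apart in their lists, at -0.70 and -0.69. Libraries of both subsets were high in Mki67, and no library of CD4 reached the lowest of CD8 (41.8% of all genes tested had no overlap).

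In the BCL2 family, 8 of 17 were higher in CD4 and 3 in CD8, beside 24.4% and 24.5% of all genes tested, with a median of 0.20. The survival genes Bcl2l1 (BCL-XL) and Bcl2 stood at 1.44 and 0.80, with Bcl2l1 at 4579.8, 4608, 5409 and 4717 in CD4 and 1862, 1747, 1813 and 1675 in CD8. Among death-promoting members, Bcl2l11 (BIM) was higher in CD8 (-0.70 ± 0.04, adjusted p = 2.34e-08), and Bbc3 (PUMA) was higher in CD4 (1.09 ± 0.08, adjusted p = 2.38e-07).

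Of 13 genes of the DNA methylation machinery, 3 were higher in CD4 and 5 in CD8, beside 24.4% and 24.5% of all genes tested. The list median was -0.09. Dnmt3a itself had 4906, 4690.0, 4839 and 5171 in CD4 and 3549, 3542, 3756 and 3812 in CD8. It was higher in every CD4 library, by 1.34-fold (0.42 ± 0.04, adjusted p = 4.18e-06). Dnmt1, the maintenance enzyme, was higher in CD8 (-0.42 ± 0.04, adjusted p = 2.94e-06), as was Dnmt3b, at 1106, 948, 1093 and 1034 against 661, 787, 641 and 738 (-0.57 ± 0.09, adjusted p = 2.03e-04). Among the enzymes that oxidize 5-methylcytosine, Tet3 stood at 0.48, and Tet1, at 60.2, 65.1, 125 and 63.4 in CD4 and 30.5, 53.7, 35.9 and 23.2 in CD8, at 1.10 ± 0.31, adjusted p = 0.00966, with no call without the libraries numbered 5 (0.88).

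No gene of the metabolic lists differed by 2-fold, beside 9.91% of all genes tested. Of 17 glycolysis genes, 6 were higher in CD4 and 4 in CD8, beside 24.4% and 24.5% of all genes tested, with a median of 0.05. Slc2a1, the glucose transporter GLUT1, and Ldha, lactate dehydrogenase, overlapped and did not pass (-0.09 and 0.05), Pdk1, which diverts pyruvate from mitochondria, stood at 0.83, and Pfkp at -0.45. Of 19 genes of sterol synthesis and uptake, 2 were higher in CD4 and 7 in CD8, beside the same shares. Pmvk, a kinase of the mevalonate pathway, stood at -0.51.

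Interferon-stimulated genes were higher in CD4. Of 29 tested, 25 were higher in CD4, 11 by at least 2-fold, and 2 in CD8, with a median of 0.80. The shares over all genes tested were 24.4%, 5.84% and 24.5% in that order. Ifi44 had 217, 166, 190.4 and 100.2 in CD4 and 34.0, 18.2, 20.7 and 14.8 in CD8 (2.89 ± 0.26, adjusted p = 1.00e-06). Oasl2 had 708, 604, 851 and 499.9 in CD4 and 167, 106, 239.9 and 103 in CD8 (2.17 ± 0.13, adjusted p = 3.54e-08), and Oas2 stood at 1.58. Irf7, a regulator of the type I interferon response, differed less (0.24 ± 0.05, adjusted p = 8.86e-04), and its call was lost in the fit joint with KO libraries (adjusted p = 0.114).

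Of 20 immediate early and heat shock genes, which handling of cells can also induce, 14 were higher in CD4 and 3 in CD8. The shares over all genes tested were 24.4% and 24.5%, and the list median was 0.35. Egr2 and Egr3, which T cell receptor signals induce, stood at 1.60 and 1.58. Fos had 2706, 2934, 4816 and 6079.9 in CD4 and 1594, 1929, 2619 and 3138 in CD8 (0.80 ± 0.06, adjusted p = 1.76e-07), and Hspa1a had 2221, 4506, 7352 and 10882 in CD4 and 1435, 2664, 4529 and 6483 in CD8 (0.71 ± 0.04, adjusted p = 4.07e-08). Both genes stood in the same order of animals in the 2 subsets, so that the groups overlapped while each pair differed the same way, and the Hspa1a call was lost without the block (adjusted p = 0.241) and in the joint fit (adjusted p = 0.313). The list summed to 121647 to 163765 in CD4 and 94294 to 123625 in CD8. Of the nuclear-retained RNAs, Neat1 had 13261, 11466, 10890.5 and 12844 in CD8 and 3715, 4396, 3367 and 6573 in CD4 (-1.47 ± 0.10, adjusted p = 1.08e-07), and Malat1 was higher in CD4 (0.69 ± 0.14, adjusted p = 0.00138) with overlapping groups, a call lost without the mean-variance trend (adjusted p = 0.0803) and with DESeq2 (adjusted p = 0.115). What RNA handling adds to these values was not tested.

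**Figure D4:**
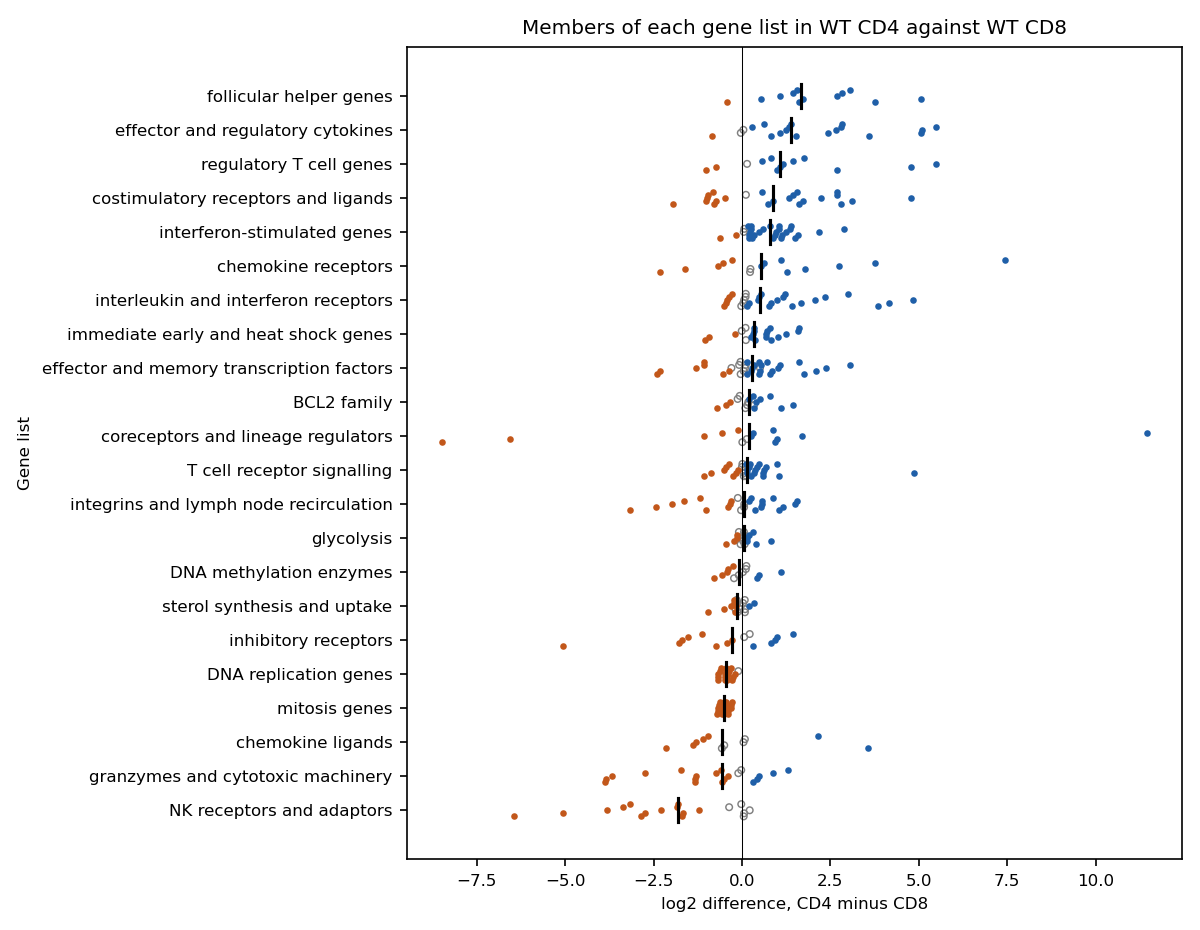
Each point is a tested member of a gene list at its log2 difference, CD4 minus CD8, filled blue or orange where it passed the threshold as higher in CD4 or CD8 and open where it did not, and the black bar is the list's median. Medians run from -1.82 for NK receptors to 1.66 for follicular helper genes, and the mitosis genes form a tight group left of 0 with a median of -0.52.

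Over all genes, the ends of the ranking also held genes outside the lists. On the CD8 side, Smyd1, a methyltransferase gene that lies near Cd8b1 on chromosome 6 without overlapping it, had 944, 825, 1099 and 805 in CD8 and 2.23, 3.67, 8.74 and 3.68 in CD4 (-7.48 ± 0.27, adjusted p = 2.86e-10). Calcb, which encodes a calcitonin gene-related peptide, and Glp1r, the receptor for glucagon-like peptide 1, stood at -6.74 and -6.53, with Glp1r at 307, 157, 279 and 219.7 in CD8 and 2.23, 0, 0.971 and 5.51 in CD4. Mrc2, a collagen receptor, was at -5.61 and Tmprss6 at -5.66. Gm156, which RefSeq names Klrh1, of the killer cell lectin-like receptor family, stood at -5.54. D430041D05Rik had 1 read in the 4 CD4 libraries against 485 in CD8 (ratio 455, exact 95% interval for counting error 81.2 to 17992). On the CD4 side, Gcg, which encodes proglucagon, the precursor of glucagon-like peptide 1, had 2042, 1689, 5576 and 3183 in CD4 and 6.11, 1.92, 0.899 and 8.34 in CD8 (9.32 ± 0.42, adjusted p = 1.81e-09). Col16a1, a collagen gene, had 762, 771, 1047 and 1221 in CD4 and 5.23, 33.6, 14.4 and 3.71 in CD8 (6.38 ± 0.41, adjusted p = 5.47e-08). Wisp1, a secreted matrix protein gene, stood at 5.19, Zscan10, a pluripotency factor gene, at 5.44 and A630023P12Rik at 6.77. Ces2c and Ces2d-ps, carboxylesterase relatives that lie side by side on chromosome 8 and could share reads, stood at 6.47 and 5.23. These genes were picked only from those whose CD4 and CD8 libraries were fully separate, so that separation is not a result here. It held for 41.8% of all genes tested.

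Other cell types could reach a sort gate, and their markers were present at levels that differed between lists. Of 10 B cell markers, 7 had a mean under 10, among them Ms4a1 and Pax5, and the sum, 1265 to 1685 in CD4 and 419 to 544 in CD8, was mostly Cd22, itself higher in CD4 (2.33 ± 0.12, adjusted p = 8.32e-09). The other 9 summed to 59.1 to 100.9 in CD4 and 178 to 275 in CD8, and of these Cd79b was higher in CD8 (-1.74). The 7 MHC class II genes summed to 9393 to 13866 in CD4 and 7279 to 10829 in CD8, with 2 higher in CD4, of which Cd74 stood at 0.61. Macrophage markers summed to 2756 to 4194 in CD4 and 2594 to 4203 in CD8, with 4 of 12 higher in CD4 and 1, Cd68, in CD8 (-1.50 ± 0.11, adjusted p = 2.38e-07). Of 9 neutrophil markers 0 passed, with sums of 2307 to 3549 and 1856 to 4435. Platelet markers gave 0 higher in CD4 and 1 in CD8 of 5, with sums of 94.2 to 210 and 157 to 272. Erythroid markers, 4 of 5 higher in CD4, summed to 1027 to 4187 in CD4 and 840 to 2776 in CD8, with libraries 3 and 5 highest in both subsets. Pancreatic acinar transcripts, which the spleen should lack, summed to 813 to 3001 in CD4 and 849 to 2252 in CD8, with 3 of 11 higher in CD4. Marker counts stand beside 24.4% of all genes tested higher in CD4 and 24.5% higher in CD8. No marker of these lists in the table was at 0 in all 8 libraries, and the part of such cells in other results was not tested.

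The same contrast in KO cells was set beside the WT contrast, with the 16 CD4 and CD8 libraries in 1 fit. Of 12446 genes tested, 173 (1.39%) had a CD4 minus CD8 difference that differed between genotypes, 90 with the higher value in WT and 83 with the lower, and 1897 had an unadjusted p under 0.05. That count rests on the pairing and on single animals, since 2 passed without the block, 8 without WT animal 2, 105 without WT animal 3, 11 without WT animal 5, 11 without WT animal 6, 12 without KO animal 4 and 268 without KO animal 3. Of the 1245 genes at least 2-fold apart in WT, 1119 were measured in KO, of which 1065 had the same sign and 722 passed the threshold there. These genes were chosen for a large WT difference. The same shares over all genes are not given here, so the counts are a description only.

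Among the 156 named genes, 7 differed between genotypes, beside 1.39% of the 12446 genes tested. The KO difference was the smaller in all 7, although genes named for a large WT difference favour that order. Cd4 differed by far the most, at 4.05 on the log2 scale (SE 0.49, adjusted p = 0.00425). KO CD4 libraries held 44804, 63578 and 74386 (lowest, median and highest of 4), against 66999, 64652, 72567 and 66902 in WT. KO CD8 libraries held 302, 342 and 458, against 12.2, 79.6, 9.88 and 28.7 in WT. The WT and KO CD8 libraries did not overlap, and this call held under 13 of 14 alternatives, all but the fit without a mean-variance trend (adjusted p = 0.142). Gzmb stood at -2.75 in WT and -1.91 in KO, with 32778, 38322 and 80806 in KO CD4 libraries as lowest, median and highest, above the 16784, 23463, 18673 and 13543 of WT CD4 libraries. Its difference between genotypes was -0.84 (SE 0.15, adjusted p = 0.0271), past the threshold in 7 of 14 alternatives. Itgb1 differed by 0.63 (SE 0.13, adjusted p = 0.0409) and Cd6 by 0.51 (SE 0.09, adjusted p = 0.0254), past the threshold in 5 and 8 of 14. Il2rb (-0.43), Cblb (-0.49) and Ctsw (-0.46) passed in 5, 6 and 4 of 14. Prf1, at -3.87 in WT and -2.78 in KO, was not called (adjusted p = 0.135). KO CD4 libraries also held CD8 coreceptor RNA, with Cd8a at 78.3, 171 and 3771 (lowest, median and highest) and Cd8b1 at 550, 705 and 4515. Their medians in KO CD8 libraries were 53680 and 45607. The part of CD8+ cells in the KO CD4 values was not tested.

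**Figure D5:**
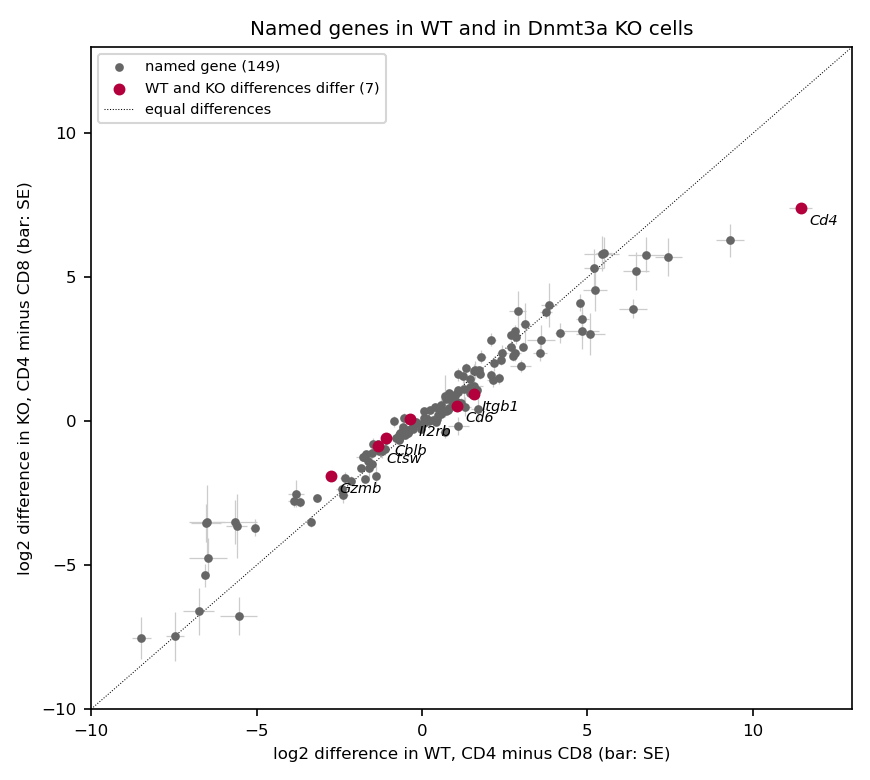
Each point is 1 of the 156 named genes at its log2 difference, CD4 minus CD8, in WT (horizontal) and in Dnmt3a KO (vertical) cells, with bars of 1 SE and the dotted line at equal differences. The 7 genes whose difference differed between genotypes are red, with Cd4 at 11.45 in WT and 7.40 in KO the furthest from the line.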

How the data were processed

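RNA-Seq libraries of sorted splenic donor T cells (4 per group, 20 in all) were grouped by the genotype, subset and number in their titles. The number was read as the animal, and where it marks no separate animal the p values measure only the spread between libraries. The authors mapped paired-end reads of stranded libraries with STAR (2.7.2b in the submitters' processing notes) on mm10, made strand-aware fragment counts over UCSC gene exons (Union mode, in which a fragment on overlapping genes is dropped), and divided by DESeq2 size factors. The deposited table therefore holds signal, the authors' normalized counts. Multiplying by the recovered size factors gave whole reads for 100% of values (tolerance 0.01). At 37547651 to 46771383 reads per WT library, the spread between libraries limits precision more than counting does, and intervals cover counting error only.

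Genes with a mean of at least 10 over the 8 WT libraries were fitted with limma 3.58.1 in R 4.3.3 (eBayes with trend) on log2(normalized count + 1), with the number as a block. P values are 2-sided and Benjamini-Hochberg adjusted over all genes tested. Fold changes are on that scale and understate those of low genes. The genotype comparison fitted the 16 CD4 and CD8 libraries with the animal as a block. On simulated data (12500 genes, 198 changed ones tested at 1 log2), limma recovered 84.8% with 9.19% false calls, edgeR 4.0.16 83.3% and DESeq2 1.42.0 82.8%. That false share is above the threshold of 0.05. The simulation changed few genes, all by 1 log2, and held no animal effect, so its rates do not carry over to the calls above.

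Named genes are the key genes of each list, up to 3 further members with the largest called differences, and the 10 largest differences in each direction over all genes (mean of at least 50, no overlap). Some genes that this rule names are not reported here. The members and the 32 lists were chosen with earlier results of these data known. Gene positions and promoter windows are RefSeq (GRCm38.p6), in which 17042 of 17101 symbols were found. Alternatives were a pseudocount of 10, other filters, 2 other scalings, no trend, edgeR and DESeq2 on whole reads, no block, a joint fit with KO, and each animal left out.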

Additional observations from a re-analysis of the deposited data

Results flagged for a closer look

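Of 312 pairs of a named gene and a subset, 18 had a library whose distance from the nearest other exceeded the 95% value for 4 samples, about the share that chance gives, which is 1 in 20 groups. In CD4, library 5 stood apart for Cd8a (586, the others 99.1 to 174), Bcl2l1 (5409, the others 4580 to 4717), Tet1 (125, the others 60.2 to 65.1), Pfkm (852, the others 778 to 791) and Klra7 (0.971, which is 1 read, the others 0). CD4 library 3 stood apart for Csf2 (1382, the others 846 to 878), Mki67 (33862, the others 29635 to 30260) and Il13 (154, the others 203 to 210). Further CD4 values apart were Gzma in library 6 (1099, the others 1304 to 1317) and D430041D05Rik in library 2 (1.11, which is 1 read, the others 0). In CD8, library 5 stood apart for Cd8a (68732, the others 62768 to 63084), Icos (6973, the others 6135 to 6167) and Nr4a2 (5661, the others 4238 to 4432). CD8 library 2 stood apart for Zbtb7b (2959, the others 2733 to 2759), Nkg7 (44610, the others 46786 to 47076) and Il2rb (51259, the others 46633 to 46988). CD8 library 3 stood apart for Bcl2l2 (468, the others 340 to 361) and Zscan10 (12.5, the others 0.872 to 2.70). Cd8a in CD4 library 5 and Cd8a in CD8 library 5 come from the pair of the same number.

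The CD4 minus CD8 difference differed between WT and KO cells, by the interaction term in limma, for 7 of the 156 named genes. The share over the 12446 genes tested was 1.39%. The WT value less the KO value was 4.05 for Cd4 (adjusted p = 0.00425), -0.84 for Gzmb (adjusted p = 0.0271), 0.63 for Itgb1 (adjusted p = 0.0409), 0.51 for Cd6 (adjusted p = 0.0254), -0.49 for Cblb (adjusted p = 0.0379), -0.46 for Ctsw (adjusted p = 0.0494) and -0.43 for Il2rb (adjusted p = 0.0494). The sign of each was kept in all 14 alternatives, and over these the largest adjusted p was 0.142 for Cd4 and between 0.395 and 0.818 for the others.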

How the results depend on the processing

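The count of genes apart between WT CD4 and CD8 ranged from 4910 (no mean-variance trend) to 6210 (quantile normalization), and from 5014 to 5650 with each pair of libraries left out. The count at least 2-fold apart ranged from 877 (minimum mean of 50, which tests fewer genes) to 1494 (no filter). Without the replicate block, 5592 passed, of which 5568 were among the 6134, and 1210 were at least 2-fold apart, so that the pairing moved neither count by 1.5 times. No gene called at least 2-fold apart in 2 fits changed sign between them. Of the 156 named genes, those that lost their call under some alternative were Cd3e, Themis, Rora, Cxcr6, Itgae, Irf7, Hspa1a, Malat1, Ccr1 and Tet1, and without the block these were Themis and Hspa1a. Genes not called changed sign in 3 cases, namely Ldha under quantile normalization (-0.0148) and, with each pair of libraries left out, Klrg1 (-0.0500 to 0.467) and Il18r1 (-0.0807 to 0.0140). Lck passed with DESeq2 (0.10, adjusted p = 0.0423), as did Klrg1 without replicate 6. The count of genes that differed between WT and KO, 173, was 2 without the trend, 2 without the replicate block and 8 to 268 with each animal left out. The causes were not tested. List medians kept their sign except those of the B cell markers (minimum mean of 50, without replicate 2 or 3) and the neutrophil markers (without replicate 5).

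With 4 libraries a group, differences that were small beside the spread left after the replicate block were not detectable. Differences below the spread between libraries of a subset were called where the pairs moved alike. Hspa1a was called at 0.71 (adjusted p = 4.07e-08 in limma), although its CD4 libraries ran from 2221 to 10882. Over all genes, 6134 passed with the block and 5592 without it. Levels in single cells and cell proportions were not measured.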

Other observations

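Some genes with few reads fell below the mean of 10 or were nearly absent from a subset. Il4, the main type 2 cytokine, had 186 reads in the 4 CD4 libraries and 2 in the 4 CD8 libraries (ratio 99.2, exact 95% interval for counting error 27.1 to 825). Il3, a growth factor for myeloid cells, had 80 reads in CD4 and 0 in CD8, at least 28.5-fold higher in CD4 with the floor of 3 counts over the group. Gzme, of the granzyme cluster, had 46 reads in CD8 and 0 in CD4, at least 14.4-fold higher in CD8, and Klra1, an NK receptor gene with close relatives, had 55 and 0, at least 17.2-fold higher in CD8.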
